A study of Homo sapiens with 7 samples.

Results

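The contacts described here join the short and the long arm of 12 chromosomes in DLD-1, a human cell line established from a colorectal adenocarcinoma. These are chromosomes 2, 3, 4, 5, 6, 7, 10, 11, 12, 17, 18 and 20. They are 12 of the 23 chromosomes (1 to 22 and X) and 12 of the 18 on which both kinds of contact could be measured. They were chosen by name from the autosomes with 2 measurable arms, leaving out 1, 8, 9, 16 and 19. The rule for choosing them used no measured contact value, but earlier results of these data were known when it was made. Of the other measured chromosomes, 1, 9 and 16, whose centromeres are flanked by long satellite arrays, are set beside them below. Chromosomes 8, 19 and X enter the shares over all 18 and are named where a count or pattern is set against them. All 12 passed the minimum of 10000 pairs of 50 kb bins both between and within the arms. Hi-C joins fragments of DNA that are neighbours in space and counts the joined pairs by sequencing. All 7 libraries came from cells in which DNMT1, the methyltransferase that copies DNA methylation at replication, carries an auxin-inducible degron (AID), so that auxin (indole-3-acetic acid) leads to its degradation. The DNMT1-AID cells were untreated, given auxin for 4 d, given auxin for 10 d, or given auxin for 4 d and then washed and grown for 4 d. The knockout cells, DNMT1-AID;DNMT3b -/-, also lacked DNMT3B, which can methylate unmethylated DNA, and were untreated or given auxin for 4 d or 10 d. The untreated knockout library was grouped by its title, since its genotype label names DNMT1-AID alone.

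Each group held 1 library, so no difference could be set against the spread of replicates and no test was made. The libraries held between 27345260 (washout) and 222645438 counted contacts (4 d, DNMT1-AID). These totals leave out contacts within a chromosome below the smallest separation with values. Counting intervals below are 95% and cover counting error only. Without a line that lacks the degron, auxin itself and loss of DNMT1 cannot be told apart, nor can loss of DNMT3B and other differences of the knockout cells. Contact sums hold no gene values, so that neither the degradation, the deletion nor the cell type was checked. Raw short-range contact of the 24 arms of these chromosomes, which moves with copy number, lay between 0.938-fold (20q, knockout, 4 d) and 1.05-fold (5p, untreated knockout) of its share in untreated DNMT1-AID cells.

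A chromosome in interphase occupies a territory of its own, and its arms meet at the centromere, which in human cells is built on alpha satellite repeats inside constitutive heterochromatin. Contact falls steeply with separation along the DNA. A pair of positions on opposite arms can therefore be compared only with a pair on 1 arm at the same separation. Pericentromeric repeats are heavily methylated in most somatic cells and are among the known targets of DNMT3B.

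The 12 chromosomes differ widely in build. The short arm ranged from 18.15 Mb on chromosome 18 to 93.15 Mb on chromosome 2 and the long arm from 36.20 Mb on chromosome 20 to 149.05 Mb on chromosome 2. The arm boundary, taken from the number of bins the deposited tables give each arm on hg38, lay nearest to the middle on chromosome 3, with 46.5% of its length in the short arm, and on chromosome 20 (43.8%), and farthest from it on chromosomes 18 (22.6%) and 5 (26.6%). Because centromeric bins are masked, the closest inter-arm pair with a value was 2.80 Mb apart on chromosome 4 and 7.70 Mb apart on chromosome 7. By RefSeq genes on GRCh38, which is hg38, the boundary of chromosome 3 (position 92200000) falls between EPHA3 (chr3:89107621-89482134), which encodes an ephrin receptor, and PROS1 (chr3:93873051-93973896), which encodes the anticoagulant protein S. On chromosome 12 (position 36000000) it falls between the glycosylation genes ALG10 (chr12:34022377-34028302) and ALG10B (chr12:38316687-38329721), and on chromosome 10 (position 40650000) between the zinc finger genes ZNF37A (chr10:38094337-38150293) and ZNF33B (chr10:42574169-42638570).

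Gene density ran from 3.36 protein-coding genes per Mb on chromosome 18 to 14.03 on chromosome 17. The authors' clusters of 50 kb bins, made from untreated DNMT1-AID cells, show how alike the arms are. The clusters named A1 and A2, where A by convention is the active compartment, together held 69.9% of the clustered short arm and 71.1% of the long arm of chromosome 17, the closest pair of arms. The arms stood farthest apart on chromosome 20, with 34.0% and 64.3%, on chromosome 18, with 47.1% and 19.1%, and on chromosome 6, with 46.3% and 19.3%. On chromosome 20 the long arm held the larger share, on 6 and 18 the short arm.

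**Figure D1:**
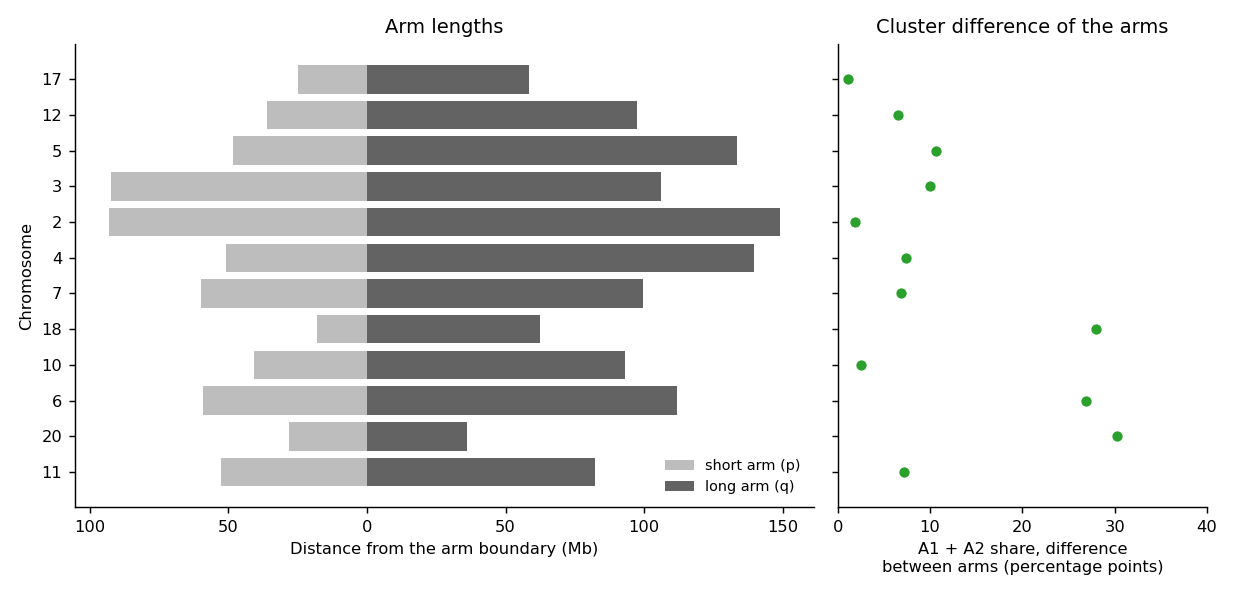
Arm lengths of the 12 chromosomes in Mb from the arm boundary (left) and the difference between their arms in the share of clustered bins in A1 or A2, in percentage points (right), with chromosomes in the order of their inter-arm ratio. The difference runs from 1.16 points on chromosome 17 to 30.3 on chromosome 20.

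The measure used throughout is the matched inter-arm ratio: balanced contact per bin pair between the arms, divided by that within the arms of the same chromosome at the same separation, in steps of 1 Mb from 20 to 50 Mb. At a ratio of 1, bin pairs on opposite arms had as much contact as bin pairs on 1 arm. Because balancing gives every bin the same total, a level is a share of a bin's contact. Inter-arm pairs at this range lie around the centromere, while intra-arm pairs come from the whole arm, so the ratio also holds differences between those regions. In untreated DNMT1-AID cells the median of the 12 chromosomes was 0.803, and the ratio was above 1 on 4 of them. Of the other measured chromosomes, it was above 1 on 1, 9 and 16 and below 1 on 8, 19 and X. The range across chromosomes, from 0.595 on chromosome 20 to 1.19 on chromosome 17, was wider than the range of any 1 chromosome over the libraries. The highest value of a chromosome was at most 1.64-fold its lowest, on chromosome 3.

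Chromosome 17, the most gene-dense of the 12, had the highest mean log2 ratio over the libraries. Its ratio was 1.19 untreated, 1.19 at 4 d, 0.998 at 10 d and 1.12 after washout in DNMT1-AID cells, and 1.14, 1.11 and 0.926 in untreated knockout cells and at 4 d and 10 d. Chromosome 12 followed, and its ratio was 1.15 untreated, 1.21 at 4 d, 1.06 at 10 d and 1.17 after washout in DNMT1-AID cells, and 1.09, 0.996 and 0.898 in untreated knockout cells and at 4 d and 10 d. For chromosome 5 it was 1.13 untreated, 1.197 at 4 d, 0.985 at 10 d and 1.13 after washout in DNMT1-AID cells, and 1.02, 0.915 and 0.795 in untreated knockout cells and at 4 d and 10 d. All 3 were above 1 in untreated cells of both genotypes and below 1 in knockout cells at 10 d, as were chromosomes 1, 9 and 16 outside the 12.

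The lowest mean log2 ratios were those of chromosomes 11, 20 and 6. On chromosome 11 the ratio was 0.596 untreated, 0.647 at 4 d, 0.635 at 10 d and 0.639 after washout in DNMT1-AID cells, and 0.671, 0.618 and 0.640 in untreated knockout cells and at 4 d and 10 d. It moved little, by 1.13-fold from its lowest to its highest value. On chromosome 20 it was 0.595 untreated, 0.661 at 4 d, 0.620 at 10 d and 0.560 after washout in DNMT1-AID cells, and 0.698, 0.683 and 0.712 in untreated knockout cells and at 4 d and 10 d. Here the 3 knockout libraries lay above all 4 DNMT1-AID libraries, a pattern that none of the other 11 of the 12 showed. The counting intervals of the 2 libraries at 4 d overlapped, however (0.649 to 0.673 in DNMT1-AID and 0.667 to 0.6998 in knockout cells). Of the other measured chromosomes, X showed the same pattern. Its lowest knockout interval, at 10 d, began at 0.657, and its highest DNMT1-AID interval, at 10 d, ended at 0.606. Chromosome 20 rested on steps up to 32.0 Mb only, with 35831 intra-arm bin pairs in untreated DNMT1-AID cells, the fewest of the 12, and its interval in the washout library ran from 0.534 to 0.587. On chromosome 6, whose short arm carries the major histocompatibility complex, the ratio was 0.695 untreated, 0.714 at 4 d, 0.648 at 10 d and 0.691 after washout in DNMT1-AID cells, and 0.696, 0.639 and 0.562 in untreated knockout cells and at 4 d and 10 d.

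The other 6 chromosomes lay between. Chromosomes 3 and 2 spanned 0.6996 to 1.15 and 0.710 to 1.003, with the lowest value in knockout cells at 10 d and the highest in DNMT1-AID cells at 4 d. Chromosome 4 ran from 0.698 to 0.904 and chromosome 10 from 0.613 to 0.792, with the same 2 libraries at the ends. Chromosome 7 had its lowest value, 0.694, in knockout cells at 10 d and its highest, 0.810, in untreated knockout cells. On chromosome 18 all 7 libraries lay between 0.684 and 0.760, the narrowest of the 12 as a fold, at 1.11-fold. Over these chromosomes, neighbours in the order often differed by less than their spread over libraries, as 7, 18 and 10 did.

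**Figure D2:**
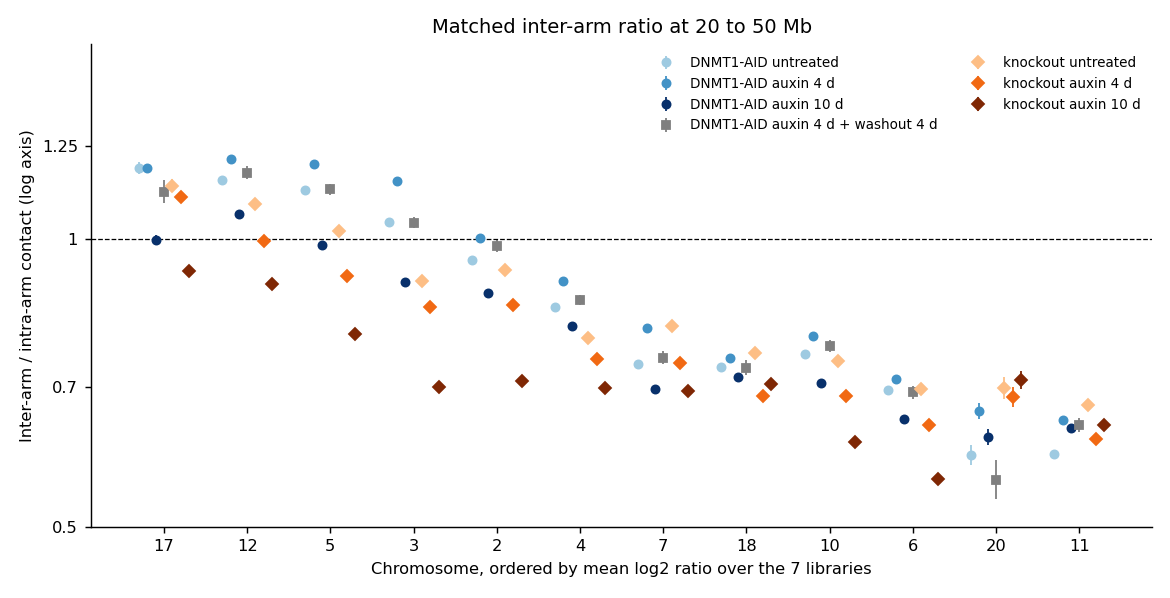
Matched inter-arm ratio at 20 to 50 Mb (log axis) of 12 chromosomes in 7 libraries; each point is 1 library, bars are 95% counting intervals, and the dashed line marks a ratio of 1. Chromosome 17 lies between 0.926 and 1.19, chromosome 11 between 0.596 and 0.671.

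The ratio also depended on separation. At 10 to 20 Mb, around the centromere itself, the median in untreated DNMT1-AID cells was 0.973 over 12 chromosomes, at 20 to 30 Mb 0.777 over 12, at 30 to 50 Mb 0.859 over 11, at 50 to 80 Mb 0.990 over 10 and at 80 to 120 Mb 1.05 over 8. The chromosomes in these bands are not the same, since short arms run out. At 5 to 10 Mb no chromosome had enough inter-arm pairs.

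Single chromosomes had distinct profiles. On chromosome 6 in untreated DNMT1-AID cells the ratio was 1.01 at 10 to 20 Mb, 0.676 at 30 to 50 Mb and 1.90 at 80 to 120 Mb, so that distant loci on opposite arms met more often than equally distant loci on 1 arm. Chromosome 3 had the same upturn, with 0.981 at 30 to 50 Mb and 1.69 at 80 to 120 Mb, as had chromosome 2, with 0.926 and 1.40. Chromosomes 10 and 12 ran the other way: chromosome 12 went from 1.18 at 30 to 50 Mb to 0.792 at 50 to 80 Mb, and chromosome 10 stood at 0.636 at 80 to 120 Mb. On chromosome 11 the ratio was 1.17 at 10 to 20 Mb, 0.562 at 30 to 50 Mb and 0.993 at 50 to 80 Mb. On chromosome 17 it peaked at 20 to 30 Mb with 1.64. At the longest separations intra-arm pairs join the ends of an arm, the telomere region with the region beside the centromere.

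In knockout cells at 10 d the median was lower than in untreated knockout cells in each of these bands. The medians were 0.828, 0.726, 0.689, 0.715 and 0.812 in the 5 bands from 10 to 120 Mb, against 1.02, 0.809, 0.837, 0.934 and 0.990. Chromosome 20 at 20 to 30 Mb was the exception among single values, with 0.674 against 0.656. Chromosome 6 at 80 to 120 Mb had a ratio of 1.11 in place of 1.66 in untreated knockout cells, and chromosome 3 had 0.948 in place of 1.58.

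**Figure D3:**
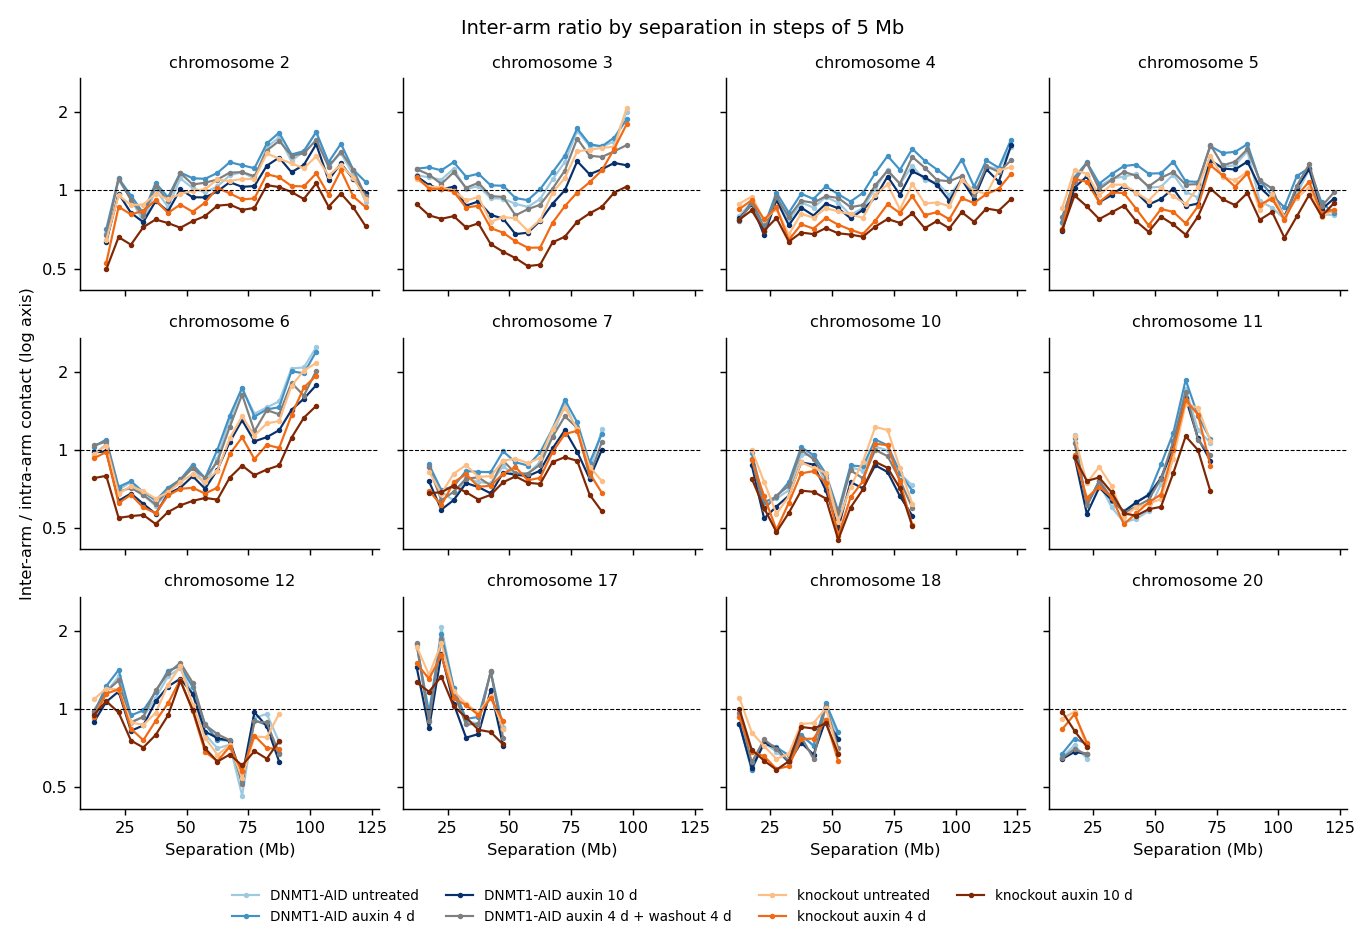
Inter-arm over intra-arm contact (log axis) against separation in steps of 5 Mb, 1 panel per chromosome and 1 line per library; a step is drawn where no library has fewer than 10000 inter-arm or intra-arm bin pairs. The upturn of chromosomes 3 and 6 beyond 50 Mb and the low line of knockout cells at 10 d on chromosomes 2 to 5 can be seen.

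Contact between the arms remained far above contact between chromosomes. At 20 to 50 Mb it was 16.4-fold the chromosome's mean contact per bin pair with other chromosomes (median of 12 in untreated DNMT1-AID cells, range 11.6 to 22.8). The median was 15.1 at 4 d, 12.8 at 10 d and 15.5 after washout, and in knockout cells 11.8, 12.3 and 10.1. Over all chromosomes, contacts between chromosomes made up 21.4%, 20.5%, 26.2% and 23.1% of the counted contacts in the DNMT1-AID libraries. In the knockout libraries they made up 25.2%, 24.4% and 29.2%, in the same order. Counted contacts leave out those within a chromosome below the smallest separation with values, so a share of all contacts would be lower.

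In raw counts, inter-arm contacts made up a small share of the contacts within a chromosome at separations of 100 kb or more. In untreated DNMT1-AID cells the share ran from 4.34% on chromosome 10 (95% exact binomial interval 4.32 to 4.36%) to 6.70% on chromosome 20, while inter-arm pairs were 42.1% and 49.4% of the bin pairs of these chromosomes. The median share was 5.27% untreated, 4.62% at 4 d, 5.72% at 10 d and 5.59% after washout, and 5.14%, 5.10% and 5.85% in knockout cells. This share counts every separation from 100 kb on together, so it also moves with the steepness of decay within arms. It did not follow the matched ratio: at 10 d it was above the untreated library on 11 of 12 chromosomes in DNMT1-AID cells and on 12 of 12 in knockout cells. The share was not computed for the other measured chromosomes, so these counts cannot be called particular to the 12.

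The first comparison asked how the arms differed after 4 d of auxin. The matched ratio was higher at 4 d than in untreated DNMT1-AID cells on 11 of the 12 chromosomes, against 83.3% of all 18 measured, with a median log2 difference of 0.082 and a range from -0.0015 to 0.15. It was at least 0.1 higher on 4 chromosomes (27.8% of all 18), namely 20 (0.15), 3 (0.14), 7 (0.12) and 11 (0.12). The lowest were 17 (-0.0015) and 18 (0.031). Both kinds of contact were lower in balanced terms on all 12 chromosomes, and on each of the other measured ones. The medians of the 12 were -0.17 between arms and -0.25 within arms, so the higher ratio came with a larger difference within the arms. The median difference was 0.027 at 10 to 20 Mb, 0.034 at 20 to 30 Mb, 0.095 at 30 to 50 Mb, 0.11 at 50 to 80 Mb and 0.031 at 80 to 120 Mb, where 3 of 8 chromosomes were lower. All 11 chromosomes measured at 30 to 50 Mb were higher, and 6 of 12 at 10 to 20 Mb.

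After the longer treatment, 10 d of auxin, the ratio was lower. It was below untreated DNMT1-AID cells on 10 of 12 chromosomes (83.3% of all 18), with a median log2 difference of -0.10, and at least 0.1 lower on 7 (61.1%). Chromosomes 17 (-0.25) and 3 (-0.21) were lowest. Chromosomes 11 (0.090) and 20 (0.061) were the 2 with a higher ratio, and they had the lowest ratios of the 12 in untreated DNMT1-AID cells. Of the other measured chromosomes, only X was higher (0.16), and its untreated ratio, 0.536, was the lowest of all 18. The same untreated library enters the difference and the untreated ratio, so these are not independent. In untreated knockout cells the 2 lowest of the 12 were chromosomes 11 (0.671) and 6 (0.696), with 20 at 0.698, and X was at 0.669. Inter-arm contact per bin pair was lower on all 12 chromosomes, with a median of -0.14, and on each of the other measured ones. Intra-arm contact was lower on 10, with a median of -0.039. Of the other measured chromosomes, intra-arm contact was lower on 8, 9 and X and higher on 1, 16 and 19. At 10 to 20 Mb the ratio was lower on all 12 chromosomes, and at 80 to 120 Mb on 7 of 8. The median difference was -0.083, -0.14, -0.087, -0.10 and -0.18 in the 5 bands from 10 to 120 Mb. With each chromosome's contact in trans subtracted from both kinds, the median at 20 to 50 Mb was -0.12. The comparisons at 4 d and 10 d share the untreated library.

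The washout library addresses what remained 4 d after auxin was removed. Its ratios lay close to those of untreated cells: the median log2 difference was 0.012, 7 of 12 chromosomes were higher (55.6% of all 18), and none differed by 0.1 or more in either direction (0% of all 18 higher and 11.1% lower). The ends were chromosome 11 (0.099) and chromosome 2 (0.047) on the high side and chromosomes 20 (-0.086) and 17 (-0.083) on the low side. Without the minimum of bin pairs per step chromosome 20 was at -0.012. The difference was beyond its counting interval on 7 of 12 chromosomes, and of the other measured ones on 1, 8, 16, 19 and X but not on 9. Against the library at 4 d of auxin the ratio was lower on all 12 chromosomes (94.4% of all 18), with a median of -0.057, and at least 0.1 lower on 3 (27.8%). These were 20 (-0.24), 3 (-0.14) and 7 (-0.10), and chromosomes 2 (-0.028) and 11 (-0.018) had the smallest differences. The 2 comparisons share the washout library. With its 27345260 counted contacts, it held 8809 inter-arm contacts on chromosome 20 and 30049 on the fullest chromosome, 4.

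In cells without DNMT3B the ratio was lower at 4 d than without auxin. This held on all 12 chromosomes (94.4% of all 18), with a median log2 difference of -0.12, and on 8 the difference was at least 0.1 (66.7%). The chromosomes were close together: the lowest were 5 (-0.16) and 18 (-0.15), and the highest 20 (-0.031) and 17 (-0.041). Intra-arm contact was higher on 11 of 12 chromosomes, with a median of 0.099, while the median for inter-arm contact was -0.014, with 8 of 12 lower. The other measured chromosomes were all higher within arms. Between arms 1, 9, 16 and 19 were lower, and 8 and X were higher. In the 5 bands from 10 to 120 Mb the median difference was -0.15, -0.12, -0.12, -0.20 and -0.24.

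Knockout cells treated for 10 d had the lowest median ratio of the 7 libraries and the lowest value on 9 of 12 chromosomes, the exceptions being 11, 18 and 20. Of the other measured chromosomes, this library was also lowest on 1, 8, 9 and 16 but not on 19 and X. Their median ratio was 0.703, and the log2 difference from untreated knockout cells had a median of -0.28. None of the 12 was above 1, and none of the other measured chromosomes was either. The ratio was lower on 11 of 12 chromosomes (94.4% of all 18) and at least 0.1 lower on 10 (83.3%). Chromosomes 2 (-0.39), 3 (-0.37) and 5 (-0.36) stood lowest, and chromosomes 20 (0.029) and 11 (-0.069) highest. Chromosome 20 was at 0.13 without the minimum of bin pairs per step. On chromosome 2 this is a change from 0.929 to 0.710, and on chromosome 3 from 0.904 to 0.6996. The lower ratio came with more contact within arms, by a median of 0.22 and on 11 of 12 chromosomes. The median between arms was -0.028, with 7 of 12 lower. All other measured chromosomes had more contact within arms. Between arms, contact was lower on 1, 9, 16 and 19 and higher on 8 and X. Relative to contact with other chromosomes, inter-arm contact was lower on 12 of 12 (100% of all 18), by a median of -0.23. By separation, all measured chromosomes were lower in each band except chromosome 20 at 20 to 30 Mb, with medians of -0.33, -0.28, -0.28, -0.36 and -0.40 in the 5 bands from 10 to 120 Mb. With trans contact subtracted the median at 20 to 50 Mb was -0.32.

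**Figure D4:**
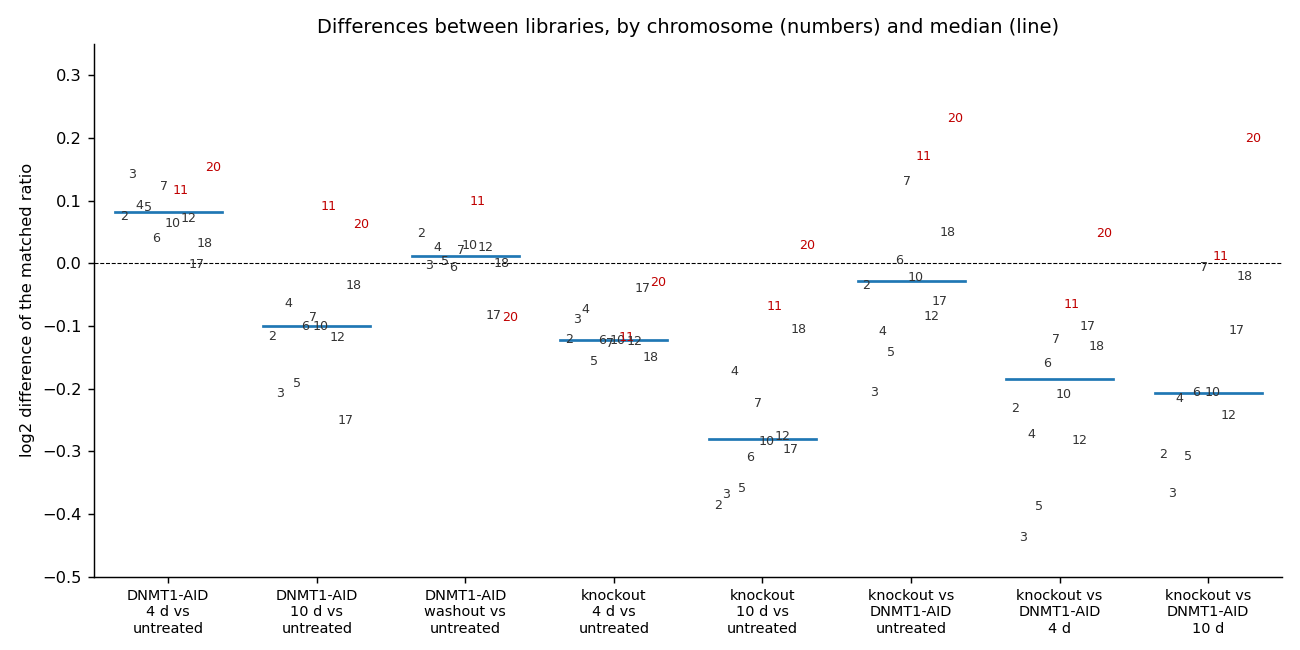
Log2 difference of the matched inter-arm ratio at 20 to 50 Mb for 8 comparisons; each number is a chromosome (11 and 20 in red) and lines are medians of the 12. In knockout cells at 10 d the chromosomes lie between -0.39 and 0.029.

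**Figure D5:**
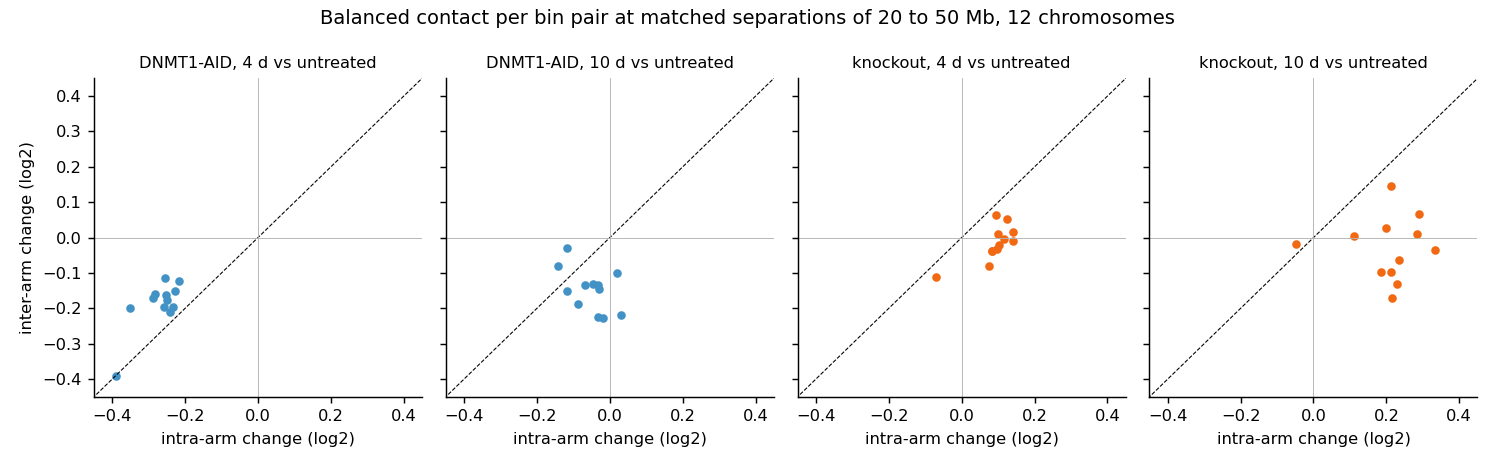
Log2 change of balanced contact per bin pair between arms (vertical) and within arms (horizontal) at matched separations of 20 to 50 Mb, 1 point per chromosome; on the dashed line both change alike. Points lie left of zero at 4 d in DNMT1-AID cells, with an intra-arm median of -0.25, and, for 11 of 12 chromosomes, right of it at 10 d in knockout cells, with a median of 0.22.

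Without auxin, the 2 genotypes had similar medians, 0.799 in knockout and 0.803 in DNMT1-AID cells, but single chromosomes differed in both directions. The median log2 difference was -0.029, with 7 of 12 chromosomes lower (61.1% of all 18). On 3 chromosomes the ratio was at least 0.1 lower (33.3%), namely 3 (-0.21), 5 (-0.14) and 4 (-0.11), and on 3 at least 0.1 higher (22.2%), namely 20 (0.23), 11 (0.17) and 7 (0.13). At other separations the median turned, to 0.019 at 10 to 40 Mb and 0.013 at 30 to 60 Mb. Both kinds of contact were lower in knockout cells on all 12 chromosomes, by medians of -0.29 and -0.29, and on each of the other measured ones. At 10 to 20 Mb the ratio was higher in knockout cells on 10 of 12 chromosomes, with a median of 0.13, and chromosome 20 stood highest there (0.46), at 0.949 against 0.692. The medians in the other 4 bands up to 120 Mb were -0.057, 0.0055, -0.055 and -0.13. The short-range coverage of 20p and 20q in untreated knockout cells was 0.966 and 0.959 of that in untreated DNMT1-AID cells.

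With auxin the knockout cells had lower ratios than DNMT1-AID cells treated for the same time. At 4 d the median log2 difference was -0.18, with 11 of 12 chromosomes lower (88.9% of all 18) and 10 at least 0.1 lower (83.3%). Chromosomes 3 (-0.44) and 5 (-0.39) stood lowest and chromosomes 20 (0.048) and 11 (-0.066) highest. At 10 d the median was -0.21, with 10 of 12 lower (77.8%) and 8 at least 0.1 lower (66.7%). The same 2 chromosomes stood lowest, 3 (-0.37) and 5 (-0.31), and 20 (0.20) and 11 (0.011) highest. On chromosome 20, the only one at least 0.1 higher at 10 d (16.7% of all 18), the direction turned without matching of separation, to -0.062, and without the minimum of bin pairs per step it was 0.30. Inter-arm contact relative to contact in trans was lower in knockout cells on all 12 chromosomes, and on 100%, 100% and 100% of all 18, at the 3 times, by medians of -0.52, -0.39 and -0.39. With trans contact subtracted the medians of the ratio's difference were -0.040, -0.21 and -0.24.

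The auxin effect itself was set side by side in the 2 genotypes. At 4 d the effect was lower in knockout than in DNMT1-AID cells on 12 of 12 chromosomes (100% of all 18), by a median log2 of -0.19 and by between -0.25 (chromosome 7) and -0.039 (chromosome 17). At 10 d it was lower on all 12 (94.4% of all 18), by a median of -0.16 and by between -0.27 (chromosome 2) and -0.033 (chromosome 20). The difference at 4 d and that at 10 d share both untreated libraries, and with 1 library per group they were not tested. The effects at 4 d had opposite directions in the 2 genotypes on 11 of the 12 (77.8% of all 18).

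On chromosomes 1, 9 and 16 inter-arm pairs span large satellite blocks. Their matched ratios in untreated DNMT1-AID cells were 1.47, 1.10 and 1.67, against a highest value of 1.19 among the 12. The closest inter-arm pair with a value was 25.8 Mb apart on chromosome 1 and 29.7 Mb apart on chromosome 9. Chromosome 16 rested on steps up to 43 Mb. These ratios therefore do not cover the same separations as those of most of the 12. In knockout cells at 10 d they were 0.831, 0.747 and 0.897, within the range of the 12 (0.562 to 0.926). The differences from untreated knockout cells were -0.66, -0.53 and -0.74, each below the lowest of the 12 (-0.39). At 10 d in DNMT1-AID cells the differences were -0.40, -0.14 and -0.37, of which that of chromosome 9 lay inside the range of the 12. At 4 d in DNMT1-AID cells they were -0.042, 0.26 and 0.030. Chromosome 19, not one of these 3, was also below the 12 in knockout cells at 10 d (-0.389, against -0.387 on chromosome 2). In DNMT1-AID cells at 10 d chromosome 19 was at -0.61, below chromosomes 1, 9 and 16. Whether the 12 differ from these 3 was not tested, since chromosomes of 1 library are not replicates.

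The differences were not the same at every separation. Chromosome 11 turned direction at 10 d in DNMT1-AID cells: it had the lowest difference of the 12 at 10 to 20 Mb (-0.27, from 1.17 to 0.972) and the highest of 11 chromosomes at 30 to 50 Mb (0.17, from 0.562 to 0.631). These bands were therefore closer together at 10 d. In knockout cells chromosome 11 had 1.31, 1.08 and 1.05 at 10 to 20 Mb and 0.621, 0.591 and 0.595 at 30 to 50 Mb, untreated and at 4 d and 10 d. Chromosome 3 had the lowest difference at long range in knockout cells at 10 d, -0.62 at 50 to 80 Mb and -0.74 at 80 to 120 Mb, against -0.37 at 20 to 50 Mb. Chromosome 2 was lowest at 10 to 20 Mb (-0.52) and at 20 to 30 Mb (-0.52). Chromosome 6 had the lowest difference at 80 to 120 Mb at 10 d in DNMT1-AID cells, -0.43.

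Between the genotypes, the difference was larger at longer separations. At 4 d the median was -0.053 at 10 to 20 Mb, -0.21 at 20 to 30 Mb, -0.20 at 30 to 50 Mb, -0.33 at 50 to 80 Mb and -0.35 at 80 to 120 Mb. At 10 d it was -0.027, -0.20, -0.24, -0.28 and -0.35 in the same bands. At both times 7 of 12 chromosomes were lower in knockout cells at 10 to 20 Mb, and all 10 and all 8 were lower in the 2 longest bands, where fewer chromosomes could be measured. Chromosome 20 stood highest at 10 to 20 Mb at each time, by 0.46 untreated, 0.31 at 4 d and 0.42 at 10 d. After washout, the ratio at 80 to 120 Mb was below untreated cells on 6 of 8 chromosomes, with a median of -0.12, and lowest on chromosome 7 (-0.33). The washout library had the fewest contacts. Of these 6, its counting interval overlapped the untreated one on chromosomes 2, 10 and 12 but not on 3, 6 and 7. On chromosome 7 it ran from 0.704 to 0.880, against 0.934 to 1.05 untreated. The medians in the 4 shorter bands were -0.00091, -0.0083, 0.026 and -0.020.

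Across the 12 chromosomes, the ratio had no strong relation to build. These correlations describe 12 chromosomes of the same cells, depth and balancing, and carry no test. Over the 7 libraries, Pearson's r between the log2 ratio and the share of length in the short arm ran from -0.33 to -0.23 and Spearman's rho from -0.44 to -0.26. For short-arm length r ran from -0.32 to 0.21, for long-arm length from -0.15 to 0.45 and for gene density from 0.080 to 0.45, where rho ran from -0.18 to 0.11. The difference between arms in A1 and A2 share had the lowest r, from -0.60 to -0.34, with rho from -0.58 to -0.16: chromosomes 6, 18 and 20, with the least alike arms, lay in the lower part of the order, and chromosome 17, with the most alike arms, lay at the top. Chromosome 10 goes against this, with arms 2.57 points apart and a ratio of 0.758 in untreated DNMT1-AID cells, as does chromosome 11, with 7.23 points and 0.596.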

How the data were processed

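Hi-C libraries were made with an Arima kit, per the labels' protocols, and the submitters' processing notes name BWA and hg38. Their versions and the filtering and balancing programs were not given in the sources used here. Per the file headers, the deposited tables give raw counts, balanced signal and valid bin pairs (a count) by separation in steps of 50 kb within arms, between arms and between chromosomes. The smallest separation with values is 100 kb. Closer contacts within a chromosome therefore enter neither the library totals nor the shares of contacts between chromosomes. Balancing by the authors gives every bin the same total.

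The matched ratio is inter-arm signal over 20 to 50 Mb, divided by what the same bin pairs would have at the intra-arm contact of each 1 Mb step. Counting intervals (95%) treat raw counts as Poisson. A minimum of 100 bin pairs of each kind per step in every library was added after a step of chromosome 20 was seen to rest on 1 pair. Its effect is given with the alternatives. In each comparison the 2 highest and 2 lowest chromosomes are named, and in levels the 3 highest and 3 lowest; the others were chosen after seeing their values. The members and lists were chosen with earlier results of these data known. Raw counts include contacts of masked bins, which the valid pairs leave out. The authors' deposited clusters of bins are labels and gave the shares of A1 and A2 by arm. Calculations used Python 3.11.15, numpy 2.4.6 and pandas 2.3.3.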

Additional observations from a re-analysis of the deposited data

Results flagged for a closer look

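The effect of 4 d of auxin on the matched inter-arm ratio ran in opposite directions in the 2 genotypes. The median log2 effect was 0.082 in DNMT1-AID cells and -0.12 in knockout cells, a difference of -0.20. On 11 of the 12 chromosomes, and on 77.8% of all 18 measured, the single library of one genotype was above its untreated library and that of the other below. On chromosome 20, 1 of the 11, the knockout effect of -0.031 had a counting standard error of 0.027 and lay within counting error. Knockout minus DNMT1-AID, the difference was -0.20 for chromosome 2, -0.23 for 3, -0.16 for 4, -0.25 for 5, -0.16 for 6 and -0.25 for 7. It was -0.19 for chromosome 10, -0.24 for 11, -0.20 for 12, -0.18 for 18 and -0.18 for 20. At 10 d only chromosome 11 had effects of opposite direction, with 0.090 in DNMT1-AID and -0.069 in knockout cells, a difference of -0.16. None of these differences was tested, as each group held 1 library, and a library that stands apart for technical reasons cannot be told apart from an effect.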

How the results depend on the processing

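Of 99 medians recomputed under 11 alternatives, 57 stayed within the counting interval, 40 moved beyond it in the same direction and 2 turned. Both that turned compare the untreated genotypes, at -0.029 otherwise; the cause was not tested. At 10 to 40 Mb the median was 0.056 for 4 d against untreated DNMT1-AID cells, 0.019 for the untreated genotypes, -0.16 for the genotypes at 4 d and -0.16 for the genotypes at 10 d. At 30 to 60 Mb the median was 0.11 for 4 d against untreated DNMT1-AID cells, -0.076 for 10 d against untreated DNMT1-AID cells, 0.027 for washout against untreated, -0.14 for 4 d in knockout cells, 0.013 for the untreated genotypes, -0.24 for the genotypes at 4 d and -0.24 for the genotypes at 10 d. Without matching of separation the median was 0.066 for 4 d against untreated DNMT1-AID cells, -0.087 for 10 d against untreated DNMT1-AID cells, 0.030 for washout against untreated, -0.037 for washout against 4 d, -0.10 for 4 d in knockout cells, -0.23 for 10 d in knockout cells, -0.013 for the untreated genotypes, -0.14 for the genotypes at 4 d and -0.16 for the genotypes at 10 d. With raw counts the median was -0.11 for 4 d in knockout cells, -0.038 for the untreated genotypes and -0.19 for the genotypes at 10 d. Against the longer arm alone the median was 0.075 for 4 d against untreated DNMT1-AID cells, -0.17 for the genotypes at 4 d and -0.19 for the genotypes at 10 d. With trans contact subtracted the median was -0.12 for 10 d against untreated DNMT1-AID cells, -0.13 for 4 d in knockout cells, -0.32 for 10 d in knockout cells, -0.040 for the untreated genotypes, -0.21 for the genotypes at 4 d and -0.24 for the genotypes at 10 d. With a minimum of 100000 bin pairs, which leaves out chromosome 20, the median was 0.075 for 4 d against untreated DNMT1-AID cells, -0.046 for washout against 4 d and -0.21 for the genotypes at 4 d. With the mean over chromosomes in place of the median the value was -0.093 for 10 d against untreated DNMT1-AID cells, -0.077 for washout against 4 d, -0.11 for 4 d in knockout cells, -0.24 for 10 d in knockout cells, -0.0063 for the untreated genotypes, -0.20 for the genotypes at 4 d and -0.15 for the genotypes at 10 d. Steps of 0.25 Mb, weighting by the bin pairs of both kinds and no minimum per step moved no median beyond its interval; these 3, and the minimum of 100000 pairs for these medians, were chosen after seeing the data. With that minimum 0, 0, 10, 9 and 5 chromosomes could be measured in the 5 bands from 10 to 120 Mb. Without the minimum per step, chromosome 20 at 10 d against untreated knockout cells was 0.13 in place of 0.029. Of single chromosomes at 0.1 or more, 3 values turned: chromosome 17 between the genotypes at 10 d (0.018 at 10 to 40 Mb) and at 4 d (0.0020 at 30 to 60 Mb), and chromosome 20 between the genotypes at 10 d (-0.062 without matching). The count at least 0.1 lower was 7 (range 4 to 8) at 10 d in DNMT1-AID cells, 3 (range 1 to 3) for washout against 4 d and 3 (range 1 to 3) between the untreated genotypes; counts of 0 were at most 1 under every alternative, and other counts lower stayed within 1.5 times. The count at least 0.1 higher was 4 (range 2 to 6) at 4 d in DNMT1-AID cells and 3 (range 1 to 4) and 1 (range 0 to 2) between the genotypes untreated and at 10 d. Median ratios of the libraries lay between 0.683 and 0.932 under matched settings and between 0.638 and 0.726 without matching. No paired analysis was possible because each group holds 1 library. Depth limits chromosome 20 in the washout library most, with a counting interval of 4.71% to each side.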
